A study of Mus musculus with 34 samples.

Results

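ERK feedback regulators and ETV factors were examined as a group of 10 genes, Dusp4, Dusp5, Dusp6, Spry1, Spry2, Spry4, Spred1, Etv4, Etv5 and Phlda1. They were chosen by name, each as the row with that symbol in the deposited table of normalized counts, and all 10 were found among its 23366 rows. The cells were J1 mESCs, embryonic stem cells of the mouse that need the cytokine LIF to self-renew in serum. The comparison was between 2 libraries from cultures without LIF (serum/-LIF) and 2 libraries from cultures without LIF that received 0.5 mg/ml of purified Royalactin (serum/-LIF + Royalactin). It asks whether genes that report the activity of the ERK pathway differ between these culture states. Both groups were grown in serum on gelatin, no genetic change is named for either, and all cells come from a single line. Royalactin is a honey bee royal jelly protein that was made in CHO cells. The sample labels give passage 40 for these cells, whereas the study's text names passage 10 for the RNA-seq. The ATAC-seq samples of the series were not analysed here.

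In the ERK pathway, receptor tyrosine kinases such as the FGF receptors act through RAS, RAF and MEK to phosphorylate the ERK kinases. ERK signalling switches on the genes of its own inhibitors. These include dual-specificity phosphatases (DUSP), which remove the phosphates from MAP kinases, and Sprouty and Spred proteins, which act between the receptor and RAF. The ETV factors Etv4 and Etv5 are ETS-family transcription factors that are also induced by FGF signalling, so the mRNAs of all these genes are widely used as readouts of the pathway. In mESCs, autocrine Fgf4 drives ERK and favours exit from self-renewal, and the MEK inhibitor of 2i medium blocks this step.

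ETS factors bind DNA at a GGAA core, and the promoters of 3 genes are shown because Dusp6 had the tightest difference between the groups and because Spry2 and Etv5 were higher in both Royalactin libraries. RefSeq promoter sequences (GRCm38.p6) were matched for 6 of the 10 genes. Those of Dusp4, Etv4, Spry4 and Phlda1 were not matched. Each sequence is the 250 bases before the transcription start, on the strand of the gene, and capitals mark GGAA or its reverse complement TTCC. For Etv5, the start called first has the lower coordinate. On the minus strand it is the downstream start, and the other start lies upstream of it.
Dusp6 (chr10:99262981-99263230, plus strand): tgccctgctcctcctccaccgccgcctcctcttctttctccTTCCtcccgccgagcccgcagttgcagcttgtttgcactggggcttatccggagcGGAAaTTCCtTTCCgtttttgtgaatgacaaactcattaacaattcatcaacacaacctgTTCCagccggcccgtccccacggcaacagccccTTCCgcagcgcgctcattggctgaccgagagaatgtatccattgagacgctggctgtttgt
Spry2 (chr14:105896820-105897069, minus strand): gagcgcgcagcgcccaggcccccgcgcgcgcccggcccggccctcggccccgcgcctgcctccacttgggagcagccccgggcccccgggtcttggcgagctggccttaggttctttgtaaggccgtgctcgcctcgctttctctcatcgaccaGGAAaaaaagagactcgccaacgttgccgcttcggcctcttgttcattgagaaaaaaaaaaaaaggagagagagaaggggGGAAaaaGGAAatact
Etv5, first start (chr16:22438369-22438618, minus strand): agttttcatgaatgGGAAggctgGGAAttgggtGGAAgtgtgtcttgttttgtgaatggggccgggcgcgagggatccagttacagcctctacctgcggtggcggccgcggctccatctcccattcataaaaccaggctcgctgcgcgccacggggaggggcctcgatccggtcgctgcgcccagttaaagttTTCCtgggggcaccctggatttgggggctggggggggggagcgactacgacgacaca
Etv5, other start (chr16:22439571-22439820, minus strand): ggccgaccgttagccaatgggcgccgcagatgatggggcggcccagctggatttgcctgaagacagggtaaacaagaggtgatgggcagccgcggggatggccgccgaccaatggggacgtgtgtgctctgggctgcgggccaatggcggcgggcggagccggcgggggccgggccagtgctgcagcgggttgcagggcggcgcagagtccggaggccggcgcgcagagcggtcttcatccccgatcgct

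The Dusp6 window holds 6 GGAA cores, of which 3 lie within a short stretch. This many or more were found in 8.68% of the 32817 windows of the same length before all RefSeq starts, where the median was 3. Spry2 holds 3 cores, and the windows before the Etv5 starts hold 4 and 0. A core of this length is common, and 93.4% of all windows hold at least 1. The longer ETS letters CCGGAAG, which contain the core, were in 6.90% of all windows and in 0 of the 7 windows of the matched genes. The same 0 of 7 held for TGANTCA, the letters of AP-1 (6.75% of all windows), for the CRE letters TGACGTCA (1.55%) and for TTCNNNGAA, the letters of STAT sites (7.01%). GGGCGG, the GC box, was in 4 of 7 windows against 32.7% of all. The 7 windows, which include both Etv5 starts, had a GC content of 56.4% to 71.2%, against a median of 52.4% for all windows. All letters were searched on both strands, and these matches describe the windows only.

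Reads were aligned to mm9, counted per gene and divided by a DESeq size factor for each library by the authors, and the values below are these normalized counts. Each library had 14737796 to 17597818 reads on genes. Rn45s, the ribosomal RNA precursor, took 9.08% to 46.6% of them, which left 7878527 to 15999458 reads on other genes. Differences were tested with limma on log2(normalized count + 1) over the 12993 genes with a mean of at least 10, with Benjamini-Hochberg adjustment, and log2 fold changes are on this scale. All 10 genes passed this filter. Intervals on reads are exact Poisson intervals at 95% and cover counting error only. The libraries are bulk RNA, so fewer cells of a type and less RNA per cell cannot be told apart.

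None of the 10 genes passed an adjusted p of 0.05 in limma, where 0.493% of all tested genes did. At an unadjusted limma p under 0.05 the count was 2 of 10, against 9.34% of all tested genes, and edgeR's quasi-likelihood test on the recovered reads called 0, against 0.423% of all genes. The 2 genes were Dusp6, lower with Royalactin, and Spry4, higher with Royalactin. Both were also selected by the limits in the study's methods, an unadjusted p of 0.05 and a 2-fold difference. These limits selected 3.61% of all tested genes as lower and 3.52% as higher. Both Royalactin libraries lay above both serum/-LIF libraries for Spry2, Spry4, Etv4 and Etv5, that is 4 of 10 genes against 19.7% of all. They lay below for Dusp6, Spry1 and Phlda1, 3 of 10 against 18.9% of all. Of the 10 genes, 4 had a positive and 6 a negative log2 fold change, with a median of -0.11 against -0.01 for all tested genes.

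**Figure D1:**
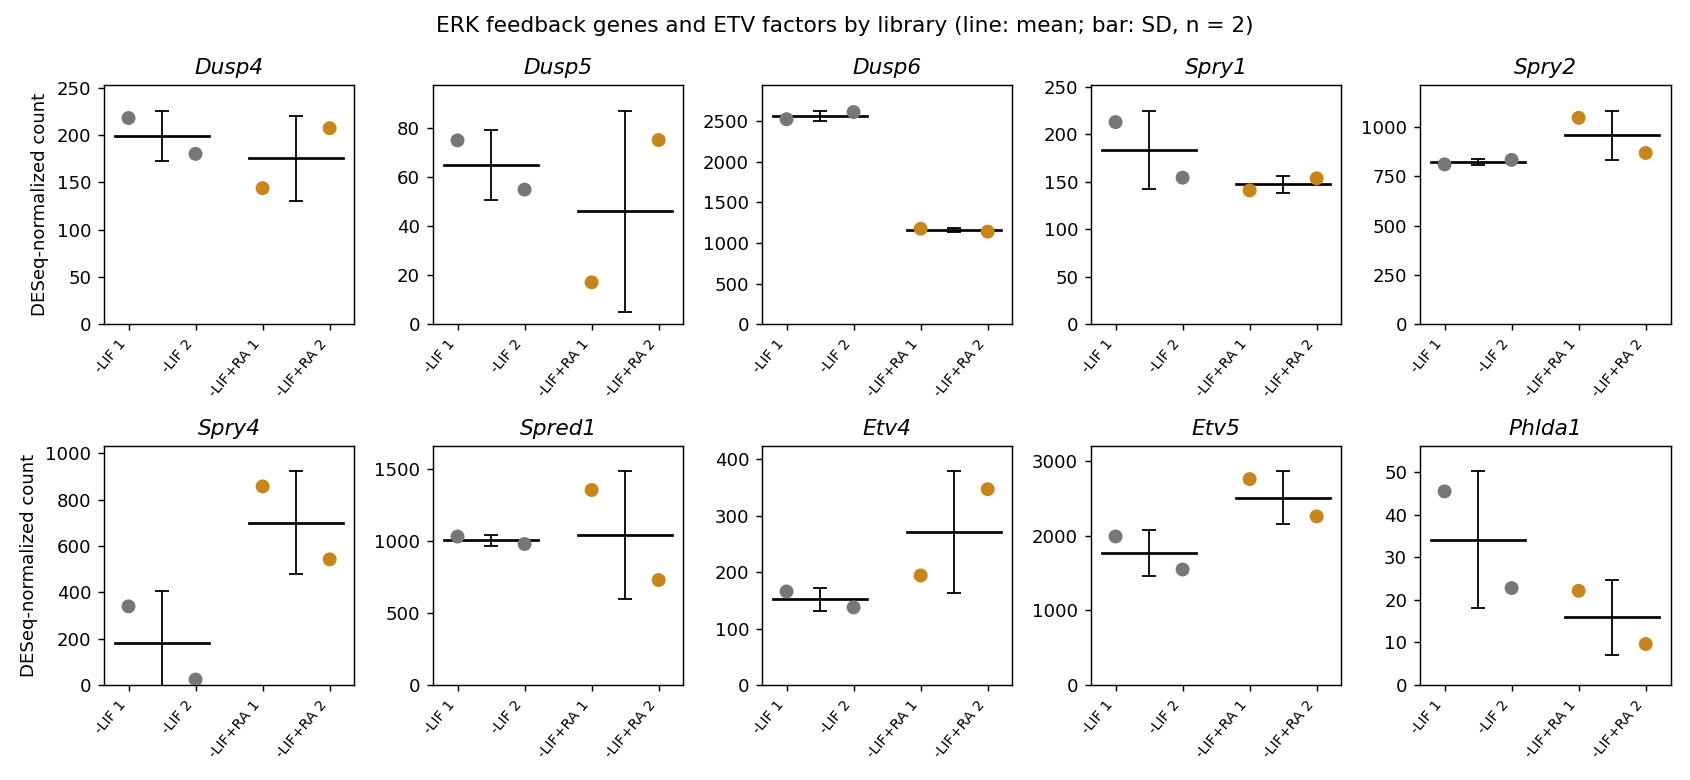
DESeq-normalized counts of the 10 genes in the 4 libraries (-LIF, serum/-LIF, and -LIF+RA, serum/-LIF + Royalactin), on a linear axis from 0 that differs between panels. Points are libraries, lines are group means and bars are SD (n = 2, the bar of Spry4 reaches below the axis). Dusp6 has replicates within 1.03-fold in each group at separate levels, and Spry4 has a serum/-LIF library at 23.8.

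Of the phosphatases, Dusp6 encodes the cytoplasmic phosphatase that is specific for ERK. The gene lies on chromosome 10 at 98725865 to 98730122 of mm9 and has 3 exon blocks. Dusp6 had 2524 and 2611 normalized counts in serum/-LIF replicates 1 and 2, and 1176 and 1141 in serum/-LIF + Royalactin. The replicates of each group were within 1.03-fold of each other, and the groups did not overlap. The mean went from 2567 ± 62.2 to 1158 ± 24.9 (SD, n = 2), which is 45.1% of the serum/-LIF level. The log2 fold change was -1.15 (standard error 0.28, 95% interval -1.76 to -0.54). With adjustment over all genes it missed the threshold (limma adjusted p = 0.132, edgeR adjusted p = 0.160), at an unadjusted limma p of 0.00132. With 1169 to 2523 reads per library, counting error was small beside this difference.

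Dusp4 and Dusp5 encode phosphatases of the nucleus, and Dusp5 is specific for ERK. Dusp4 (chromosome 8, 35870351 to 35882948) had 218 and 180 normalized counts in serum/-LIF and 144 and 207 with Royalactin. These groups overlapped, with a log2 fold change of -0.20 (95% interval -1.16 to 0.76, limma adjusted p = 0.929). Dusp5 (chromosome 19, 53603599 to 53616921) had 74.9 and 54.9 in serum/-LIF and 17.1 and 75.0 with Royalactin. The Royalactin replicates of Dusp5 differed 4.39-fold and enclosed both serum/-LIF values. The 17 reads of Royalactin replicate 1 (interval 9.90 to 27.2) and the 109 of replicate 2 (interval 89.5 to 131) differed by more than counting error. The log2 fold change of Dusp5, -0.81, had an interval from -2.59 to 0.97 (limma adjusted p = 0.819), and it was 0.22 without Royalactin replicate 1.

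The other MAP kinase phosphatases were listed to set these 3 genes in their family, and all 7 were tested. None passed the adjusted threshold in limma or edgeR, and 1 of 7 had an unadjusted limma p under 0.05, against 9.34% of all tested genes. For 6 of the 7, both Royalactin libraries lay below both serum/-LIF libraries, against 18.9% of all tested genes. The median log2 fold change of the 7 was -0.77, against -0.01 for all genes. The largest fall in fitted value was that of Dusp2, a nuclear phosphatase induced by mitogens, with 48 and 46 reads in serum/-LIF and 1 and 25 with Royalactin (means of 55.9 and 9.11 normalized counts). The single read in Royalactin replicate 1 makes the log2 fold change of -3.22 imprecise (standard error 1.29, limma adjusted p = 0.437). The exception was Dusp9, a cytoplasmic phosphatase close to Dusp6, with 818 and 465 normalized counts in serum/-LIF and 599 and 805 with Royalactin (log2 fold change 0.17, limma adjusted p = 0.924). Over the family of 10, with Dusp4, Dusp5 and Dusp6 included, 7 were lower in both Royalactin libraries, against 18.9% of all tested genes. The groups overlapped for 3, and 0 were higher in both, against 19.7% of all.

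Among the Sprouty genes, which encode inhibitors of signalling from receptor tyrosine kinases to RAS and RAF, Spry4 had the log2 fold change of greatest size among the 10 genes with all libraries in the fit, a place it lost without serum/-LIF replicate 2. Spry4 (chromosome 18, 38745922 to 38760922) had 340 and 23.8 normalized counts in serum/-LIF replicates 1 and 2, and 857 and 542 with Royalactin. Both Royalactin values were above both serum/-LIF values, but the serum/-LIF replicates differed 14.3-fold. The 23 reads of serum/-LIF replicate 2 (interval 14.6 to 34.5) stand against 328 expected there at the level of replicate 1. Of the 8878 genes with a mean of at least 100, 5 had a gap this large or larger between these replicates, Spry4 included. The log2 fold change was 2.89 (standard error 0.84, 95% interval 1.09 to 4.69, limma adjusted p = 0.210, edgeR adjusted p = 0.426). Without serum/-LIF replicate 2 it was 1.00, smaller in size than those of Phlda1 (-1.57), Dusp6 (-1.12) and Dusp5 (-1.03) in that fit, and without serum/-LIF replicate 1 it was 4.78. Against serum/-LIF replicate 1 alone, the Royalactin mean was 2.06-fold higher.

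Spry2 and Spry1 showed smaller differences. Spry2 (chromosome 14, 106291166 to 106296036) had 810 and 833 normalized counts in serum/-LIF and 1046 and 868 with Royalactin. The Royalactin values were higher without overlap, at 1.16-fold in the mean, and the log2 fold change of 0.21 had an interval from -0.44 to 0.87 (limma adjusted p = 0.876). Spry1 (chromosome 3, 37538869 to 37543520) had 213 and 154 in serum/-LIF and 141 and 154 with Royalactin. Its lower serum/-LIF value, 154.2, and its higher Royalactin value, 153.5, nearly met (log2 fold change -0.30, 95% interval -1.29 to 0.69, limma adjusted p = 0.886). Spry3 had 0 reads in all 4 libraries. A count of 0 allows up to about 3 reads in each, by a one-sided 95% bound that differs from the intervals used elsewhere.

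Spred1 encodes a Sprouty-related protein that brings the RAS inhibitor neurofibromin to the membrane. Spred1 (chromosome 2, 116947110 to 117008015) had 1031 and 979 normalized counts in serum/-LIF and 1354 and 729 with Royalactin. The Royalactin replicates lay on either side of both serum/-LIF values. The means were nearly equal, 1005 ± 36.7 and 1041 ± 442 (SD, n = 2). The log2 fold change was -0.02 (95% interval -0.75 to 0.72, limma adjusted p = 0.993).

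Etv4 and Etv5 had higher values in both Royalactin libraries, and neither passed the test. Etv5 (chromosome 16, 22381382 to 22439792) had 1989 and 1546 normalized counts in serum/-LIF and 2756 and 2256 with Royalactin. Both Royalactin libraries were above both others, and the means were 1767 ± 313 and 2506 ± 353 (SD, n = 2), a 1.42-fold difference. The log2 fold change of 0.51 had a 95% interval of -0.13 to 1.15 (limma adjusted p = 0.653). The count of Etv5 is uncertain. Of 128 tiles of 75 bases in its exons, 78 also matched a copy at 71167051 to 71170608 on chromosome 10 of mm9, with up to 2 mismatches. Of these tiles, 41 matched the copy exactly. The copy is far shorter than the Etv5 gene and lacks its introns. The annotation has the pseudogene Gm4798 there, and how reads of both places were counted is not stated.

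Etv4 (chromosome 11, 101631056 to 101646685) had 166 and 138 normalized counts in serum/-LIF and 194 and 347 with Royalactin. Here too the groups did not overlap, with means of 152 ± 19.9 and 271 ± 108 (SD, n = 2), a 1.78-fold difference. The Royalactin replicates differed 1.79-fold, as much as the group means, and the log2 fold change of 0.78 had an interval from -0.20 to 1.76 (limma adjusted p = 0.655). None of the 90 tiles of Etv4 matched elsewhere. Etv1, the remaining factor of this PEA3 group, was lower in both Royalactin libraries, with 489 and 646 normalized counts in serum/-LIF and 369 and 354 with Royalactin (log2 fold change -0.63, limma adjusted p = 0.625).

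Phlda1 encodes a PH-domain protein that is used as a marker of MEK and ERK output. Phlda1 (chromosome 10, 110943342 to 110945705) was the weakest of the 10, with 45.5 and 22.8 normalized counts in serum/-LIF and 22.1 and 9.64 with Royalactin. Its 14 to 34 reads per library give wide counting intervals, such as 13.8 to 33.3 for the 22 reads of serum/-LIF replicate 2. Serum/-LIF replicate 2 and Royalactin replicate 1 differed by less than this error. The log2 fold change was -1.08 (95% interval -3.37 to 1.21, limma adjusted p = 0.812).

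**Figure D2:**
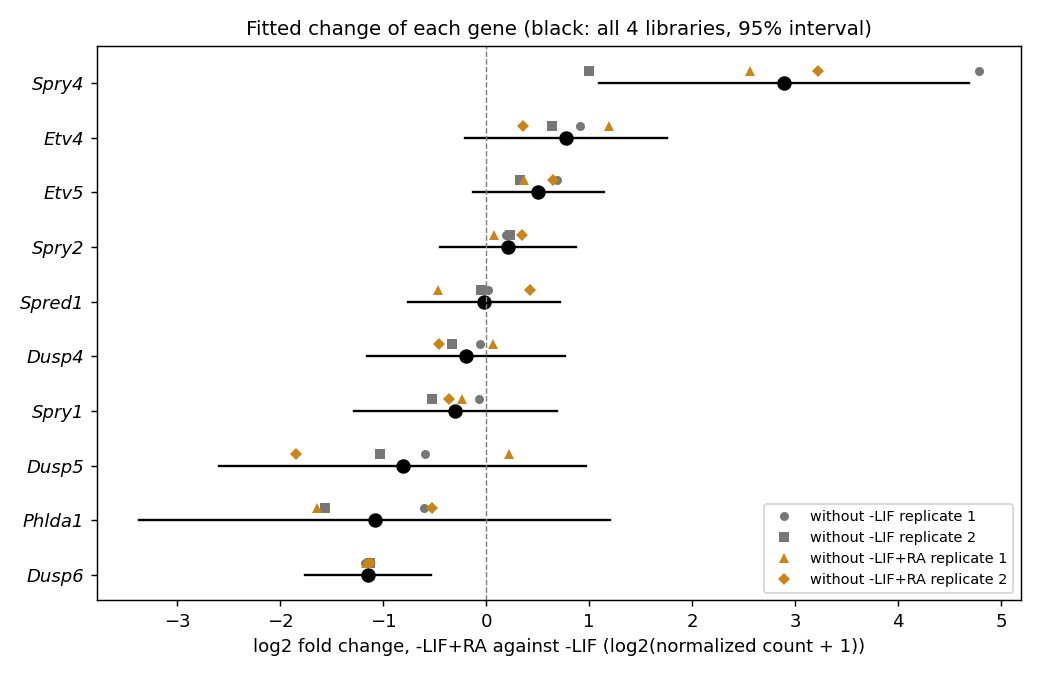
Log2 fold changes of the 10 genes (serum/-LIF + Royalactin against serum/-LIF, on log2(normalized count + 1)) with 95% intervals from limma in black, and the same value with each library left out in turn as grey and orange symbols. Dusp6 stays between -1.17 and -1.12 whichever library is left out, Spry4 moves between 1.00 and 4.78, and the intervals of the other 8 genes include 0.

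**Figure D3:**
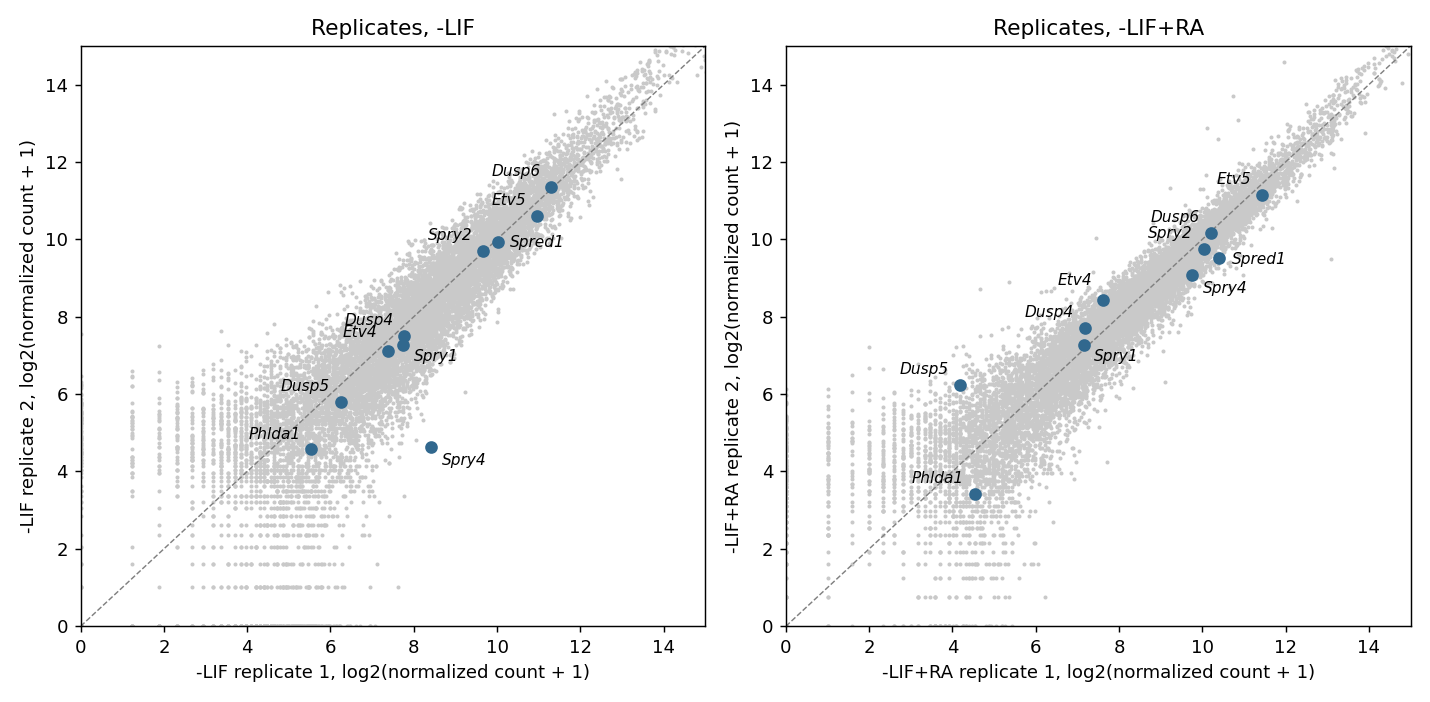
Replicate 2 against replicate 1 for the tested genes (grey) and the 10 genes (blue), in serum/-LIF (left panel) and serum/-LIF + Royalactin (right panel), both axes log2(normalized count + 1). Spry4 lies far below the diagonal in serum/-LIF, at 340 against 23.8 normalized counts, and close to it with Royalactin, while Dusp5 lies off it with Royalactin, at 17.1 against 75.0.

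Ratios of normalized counts within a library do not depend on how the libraries were scaled. Dusp6 was taken as the denominator after its lower values with Royalactin were seen, which by itself raises every ratio there, so the ratios of the other 9 genes are a description with no test. The ratio of Etv5 to Dusp6 was 0.788 and 0.592 in serum/-LIF replicates 1 and 2, and 2.34 and 1.98 with Royalactin. Spry2 to Dusp6 was 0.321 and 0.319 against 0.890 and 0.761, and Spred1 to Dusp6 was 0.409 and 0.375 against 1.15 and 0.639. Both Royalactin libraries lay above both serum/-LIF libraries for these genes and for Dusp4, Spry1, Spry4 and Etv4, that is 7 of 9 ratios. The same share over all genes was not computed, so this count does not set these genes apart. Dusp5 to Dusp6, at 0.0297 and 0.0210 against 0.0145 and 0.0658, and Phlda1 to Dusp6, at 0.0180 and 0.00872 against 0.0188 and 0.00845, overlapped.

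**Figure D4:**
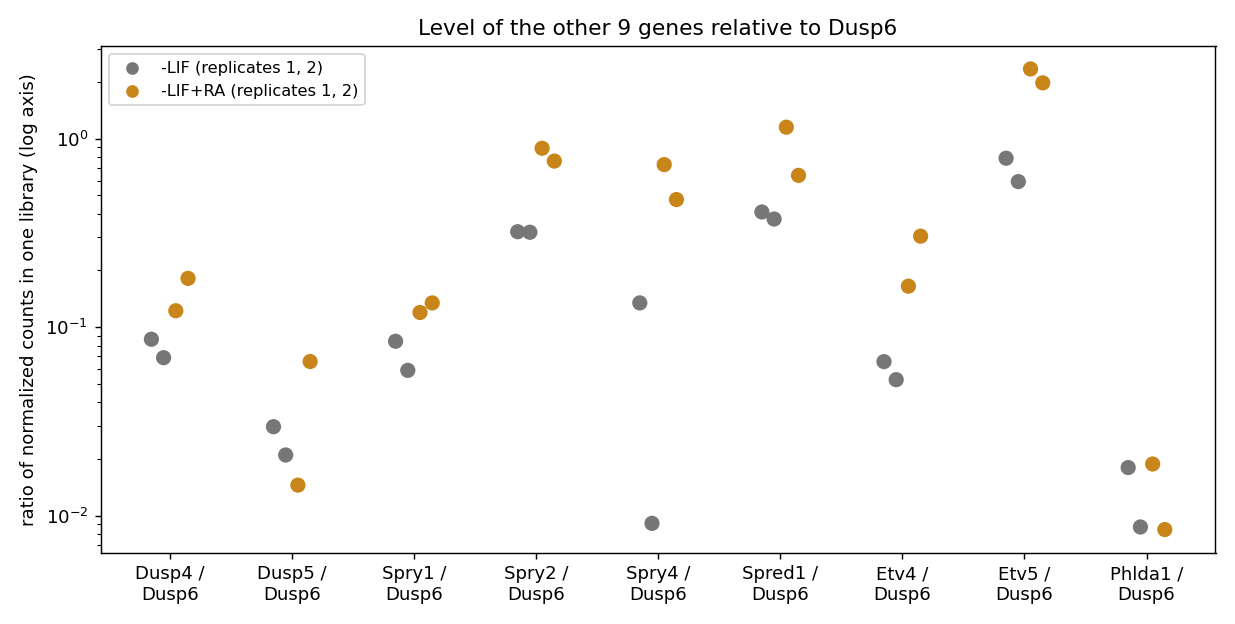
Normalized count of each of the other 9 genes divided by that of Dusp6 in the same library, on a log axis, for the serum/-LIF (grey) and serum/-LIF + Royalactin (orange) replicates. Both orange points lie above both grey points in 7 of 9 ratios, which the choice of Dusp6, lower with Royalactin, favours, and Dusp5 and Phlda1 overlap.

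To compare levels between genes, normalized counts were divided by the length of the joined exons in kilobases. The value of Etv5, and so its place relative to the other genes in both groups, is uncertain. Of the 128 tiles of its exons, 78 also matched the copy on chromosome 10, and how such reads were counted is not stated. In serum/-LIF, Dusp6 had the highest value of the 10 by this measure, at a mean of 918 normalized counts per kilobase. Etv5 followed at 431 and Spry2 at 394, a pair whose replicate values overlapped, and then Spred1 at 148. The remaining genes had between 17.5 (Phlda1) and 72.6 (Dusp4). With Royalactin the order at the top was Etv5 at 611 normalized counts per kilobase, Spry2 at 459 and Dusp6 at 414. The replicates of Spry2, 502 and 416, overlapped those of Dusp6, 421 and 408. Spry4 stood in place 8 of the 10 in serum/-LIF, at 39.6 normalized counts per kilobase, and in place 5 with Royalactin, at 153, next to Spred1 at 154. The serum/-LIF place rests on replicate 2, since Spry4 had 74.1 normalized counts per kilobase in replicate 1, above Spry1 at 73.2, and 5.19 in replicate 2, the lowest of the 10. Phlda1 was the lowest in both groups.

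Around these genes, 6 lists of the pathway with 81 genes in all were examined, of which 75 were tested. In limma 1 of them passed the adjusted threshold and 12 of 75 had an unadjusted p under 0.05, against 9.34% of all tested genes. Of the ligands and receptors, 12 of 14 were tested. An unadjusted limma p under 0.05 was reached by 5 of the 12, against 9.34% of all tested genes. These were Fgf5, Fgf8 and Egfr, lower with Royalactin, and Fgf4 and Kit, higher. Fgf4 had 984 and 454 normalized counts in serum/-LIF and 1160 and 1322 with Royalactin (limma adjusted p = 0.459). Egfr had 162 and 324 in serum/-LIF and 83.5 and 71.6 with Royalactin (limma adjusted p = 0.319). Fgf5, a growth factor of the primed epiblast, fell from 380 and 433 normalized counts in serum/-LIF to 67.4 and 90.9 with Royalactin (log2 fold change -2.36, limma adjusted p = 0.0356, edgeR adjusted p = 0.0324). This call was lost in 9 of 13 alternatives, among them each library left out, both other scalings and limma without the trend. The largest positive value on that list was 1.27 for Kit, the receptor of stem cell factor (limma adjusted p = 0.341).

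The adaptors and the kinase cascade from Frs2 to the RSK kinases were all tested, 21 genes with a median log2 fold change of 0.12. None passed the adjusted threshold in limma or edgeR, and 3 of 21 had an unadjusted limma p under 0.05, against 9.34% of all tested genes. The highest value was that of Ksr1, a scaffold for RAF, MEK and ERK, at 2.10 (limma adjusted p = 0.628). Ksr1 resembled Spry4 in its serum/-LIF replicates, with 50.8 and 3.11 normalized counts, against 46.3 and 81.2 with Royalactin.

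Other inhibitors of receptors and RAS (11 of 12 tested) had a median log2 fold change of 0.03 and ranged from -0.73 for the RAS GTPase-activating gene Rasa2 to 0.86 for Spred2, a relative of Spred1. Other ETS factors (12 tested) had a median of 0.07 and ranged from Etv1 to Elk3 at 1.91, a gene with 3 to 30 reads per library. Other genes induced by ERK (12 of 15 tested) had a median of 0.04, from -0.90 for Myc to 1.90 for the ephrin receptor gene Epha4. Epha4 had 78.9 and 36.2 normalized counts in serum/-LIF and 185 and 221 with Royalactin, and did not pass the threshold (limma adjusted p = 0.233). In these 3 lists no gene passed in limma or edgeR, and 0 of 11, 1 of 12 and 2 of 12 genes had an unadjusted limma p under 0.05, against 9.34% of all tested genes. Of the output genes that were not tested, Egr3 had 0 reads in all libraries, and Fosb and Fosl1 were below the filter.

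**Figure D5:**
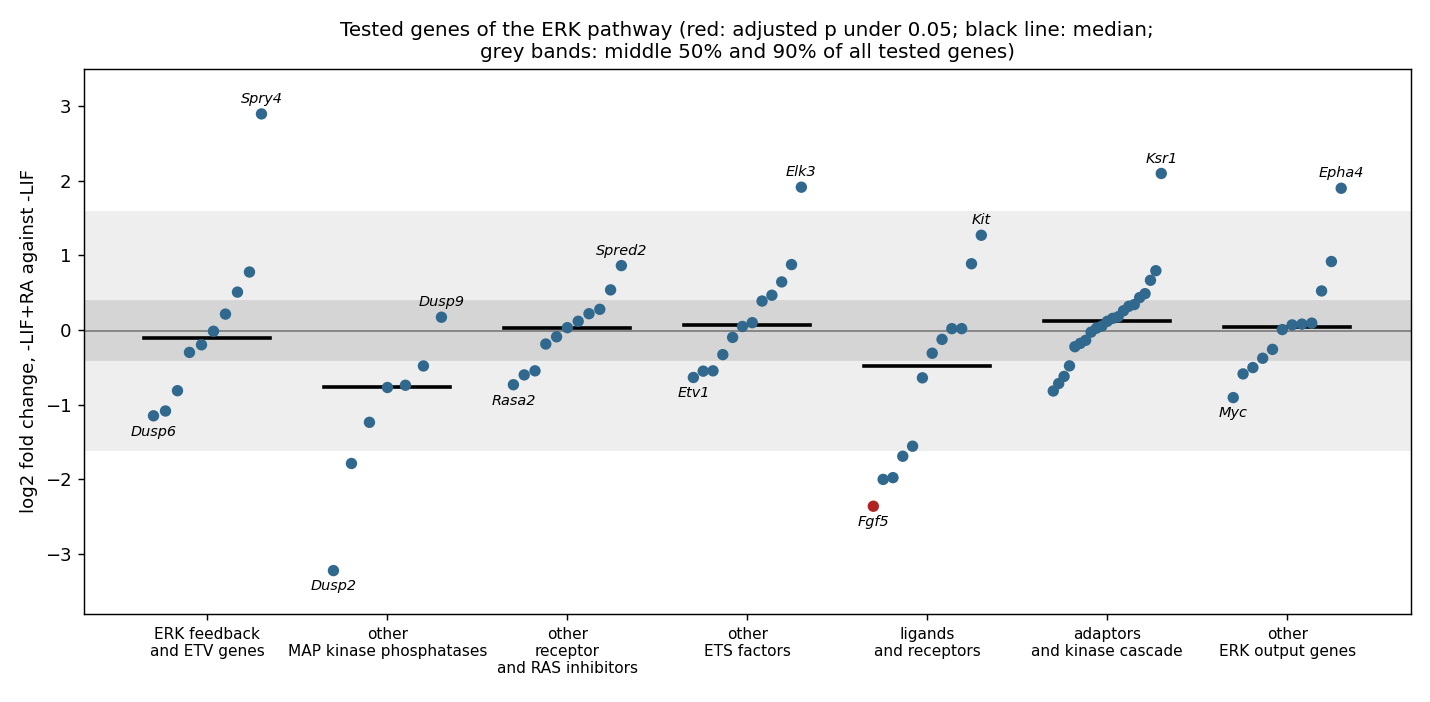
Log2 fold changes (serum/-LIF + Royalactin against serum/-LIF) of the tested genes of the 10 and of the 6 pathway lists, one point per gene, with the list median as a black line and the middle 50% and 90% of all tested genes as grey bands. Fgf5 is the red point that passed an adjusted p of 0.05, and the phosphatase list has the lowest median at -0.77.

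By the smallest Euclidean distance over the 4 libraries to the mean centred log2 profile of the 10 genes, the most alike of 8870 other genes with a mean of at least 100 were Dtx3, Arrb2, Lamb1, Ndufaf7 and Agap3, at distances of 0.02 to 0.05. The mean profile itself was 0.29 and -0.37 in serum/-LIF replicates 1 and 2 and 0.03 and 0.06 with Royalactin. It thus follows the gap between the serum/-LIF replicates, to which Spry4 contributes most, and not the culture condition.

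Markers of other cell states moved with the same comparison. Of 9 markers of undifferentiated mESCs, 5 rose in limma (Sox2, Zfp42, Esrrb, Klf4 and Tfcp2l1), where 0.493% of all tested genes passed. The summed normalized counts of the 9 were 24502 and 30923 in serum/-LIF and 35085 and 41931 with Royalactin. Tdgf1 of this list went the other way, with 10914 and 14553 in serum/-LIF and 8696 and 9728 with Royalactin. Pou5f1, a defining gene of the labelled cell type, had 4996 to 7453 normalized counts in the 4 libraries. A list of 9 genes drawn up for contractile cells held Acta2, Tagln, Cnn1, Myl9, Tpm1, Tpm2, Ctgf, Cyr61 and Thbs1. Ctgf, Cyr61 and Thbs1 are not specific to such cells. The sum of the 9 genes was 13339 and 14854 in serum/-LIF and 2481 and 3041 with Royalactin. Tpm1 alone had 5678 and 8246 in serum/-LIF and 1069 and 1461 with Royalactin. In limma 5 of the 9 genes fell, namely Tagln, Cnn1, Tpm1, Cyr61 and Thbs1. All 9 genes of this list were lower in both Royalactin libraries, against 18.9% of all tested genes. The same held for 3 of the 10 genes (Dusp6, Spry1 and Phlda1, but not Dusp4 or Dusp5) and for 6 of the 7 other phosphatases. Of 11 fibroblast markers, 9 were below the filter, Pdgfrb, Postn, Prrx1 and S100a4 had 0 reads in every library, and the sum was 112 and 95.2 in serum/-LIF and 55.3 and 37.9 with Royalactin. Their part in the differences of the 10 genes was not tested.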

How the data were processed

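RNA-seq libraries of ribosomal-depleted RNA from J1 mESCs were used, 2 per condition, assigned by the sample labels, which match the column names. The series states biological duplicates. Reads were aligned to mm9 with Tophat and counted with HTSeq-count, and the authors deposited counts divided by DESeq size factors, a signal proportional to reads. Strand setting and counting annotation are not given in the sources used here. All values were whole multiples of a step per library to within 0.01 of a read (100% of values), which gave the reads. In Royalactin replicate 1 the step is too close to 1 for an automatic test of whole reads.

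limma 3.58.1 (trend, two-sided) in R 4.3.3 was fitted to log2(normalized count + 1) for genes with a mean of at least 10. edgeR 4.0.16 on the recovered reads was added after seeing the data. The steps were tested on simulated data. Exon positions and lengths come from GENCODE for mm9, and exon tiles of 75 bases every 25 bases were mapped with minimap2 2.31-r1302, without tiles across junctions. The alternatives were 2 other pseudocounts, 2 filters, 2 scalings, limma without the trend, the replicate block and each library left out.

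All 10 genes are named, and from each list the genes that passed and the largest rise and fall. From the ligands and receptors, the genes with an unadjusted limma p under 0.05 are named too. Markers and genes at 0 are named beside these, and the largest fall of the cascade list is not reported here. The genes and lists were chosen with earlier results of these data known.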

Additional observations from a re-analysis of the deposited data

How the results depend on the processing

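Of 129 log2 fold changes of the 10 genes under the alternatives, 121 kept their direction and their side of the threshold, and Phlda1 could not be fitted at a mean of at least 50. The replicate number as a block called 2 of the 10 genes, Dusp6 (limma adjusted p = 0.00349) and Spry4 (limma adjusted p = 4.31e-09), both at the same fold change. It called 391 genes in all against 64, and 2 pathway genes, Fgf5 and Epha4, against 1. This fit has 1 residual degree of freedom and takes its spread from the trend across genes alone. The labels give only shared numbers, and the deviations of same-numbered libraries had a correlation of 0.0851 across genes. The share of Rn45s was higher in replicate 1 than in replicate 2 of each group. It was 46.6% and 21.6% in serum/-LIF replicates 1 and 2, and 38.4% and 9.08% in Royalactin replicates 1 and 2. Spred1 changed sign with scaling to the total without Rn45s (0.0391), with edgeR (0.0661) and with libraries left out (-0.46 to 0.43). Dusp4 reached 0.0641 and Dusp5 0.22 without Royalactin replicate 1, from lowest values of -0.46 and -1.85 with a library left out. Over all genes, 32 were called with a pseudocount of 0.1, 34 without a filter, 99 at a mean of at least 50, 55 with edgeR, and 0 without the trend, where 1135 had an unadjusted p under 0.05. The fits with a library left out have 1 residual degree of freedom and assume that the lone library varies like the pair. The call of Fgf5, the single pathway gene, was lost (0 genes) with a pseudocount of 0.1, without a filter, under both scalings, without the trend and with each library left out. The limits of the study's methods selected 1 of the 10 genes, Dusp6, without the trend, and 1 or 2 with a library left out, Spry4 being lost without either Royalactin replicate. For each of these shifts the cause was not tested. The counts of Phlda1 and Dusp5, under 110 reads per library, limit what can be seen for them.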

Other observations

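Further marker lists describe the cultures in which these genes were measured. Of 7 primed epiblast markers, 1 fell in limma with an adjusted p under 0.05, Fgf5, and the median log2 fold change was -0.52, with summed normalized counts of 19726 and 15672 in serum/-LIF and 13938 and 12979 with Royalactin. Of 9 primitive endoderm markers, 6 were tested and none passed in limma or edgeR, with 1 at an unadjusted limma p under 0.05. This was Col4a1, with 1541 and 839 normalized counts in serum/-LIF and 658 and 663 with Royalactin (limma adjusted p = 0.506). Gata6 and Sox17, which define that lineage, had 0 to 17 reads per library. Gata4 had 21 and 8 reads in serum/-LIF and 49 and 65 with Royalactin. Of the 6 tested, 4 had a positive and 2 a negative log2 fold change. The summed normalized counts of the 9 were 2487 and 1287 in serum/-LIF and 1763 and 1299 with Royalactin. Of 6 trophoblast markers, 2 were tested and none passed in limma or edgeR, with 1 at an unadjusted limma p under 0.05. That gene was Tfap2c, with 37.4 and 104 normalized counts in serum/-LIF and 214 and 310 with Royalactin (limma adjusted p = 0.195). Elf5 had 0 reads in all 4 libraries.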
